A study of Mus musculus with 56 samples.

Results

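Bhlhe40, Bhlhe41 and Ciart encode DEC1, DEC2 and CHRONO, a set of transcriptional repressors of the circadian clock. They were chosen by gene symbol, and their 3 rows were taken from the 25415 rows of the gene table over all 56 livers. All 3 had a mean scaled count of at least 10 and were among the 20609 genes tested. The livers came from female C57BL/6J mice aged 9 weeks, with no genetic change given in the labels. After 7 days on normal chow without limits under 12 h of light and 12 h of dark, the mice spent 7 days on one of 2 regimens. Daytime-restricted feeding (DRF) gave food in the light phase and nighttime-restricted feeding (NRF), the reference, gave it in the dark phase. Each regimen was sampled at zeitgeber time (ZT, counted in hours from lights on) 0, 4, 8, 12, 16, 20 and 24, with 4 mice per time, which made 14 groups. A liver is 1 time point of 1 mouse, so every rhythm here is a pattern across mice.

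The clock of liver cells runs on a feedback loop. BMAL1 (gene Arntl) and CLOCK bind E-box sequences and switch on genes whose products later shut them off. The PER and CRY proteins are the best known of these repressors. DEC1 and DEC2 are basic helix-loop-helix proteins that bind E-boxes themselves and compete with BMAL1 and CLOCK, while CHRONO binds BMAL1 and dampens its activity. Feeding is the main time cue for the liver clock, whereas light sets the clock of the brain.

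In the mm10 (GRCm38) build and the GENCODE vM21 annotation, Ciart (ENSMUSG00000038550) lies on the minus strand of chr3:95878503-95882251, with 2261 exon bases. Bhlhe41 (ENSMUSG00000030256) lies on the minus strand of chr6:145858243-145865558, with 6720 exon bases. Bhlhe40 (ENSMUSG00000030103) lies on the plus strand of chr6:108660629-108666925, with 4705 exon bases. Of the Bhlhe41 exon bases, 19.05% overlap an unconfirmed transcript on the opposite strand, Gm43909. Of those of Bhlhe40, 2.51% overlap the antisense gene 0610040F04Rik. Whether counting used the strand of the reads is not given in the sources used here, so reads from these overlaps cannot be assigned with certainty.

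The promoter of Ciart is shown because it carries the E-box CACGTG, the site bound by BMAL1 and CLOCK, several times, and that of Bhlhe41 because it carries it once. RefSeq windows (GRCm38.p6) from 250 bases before to 50 bases after the start site were searched on both strands, and 2 of the 3 genes had one. Only the bases before the GENCODE start are printed, 5′ to 3′ on the strand of the gene, with E-boxes in capitals. The Ciart stretch is chr3:95882252-95882478, minus strand, and the Bhlhe41 stretch is chr6:145865559-145865670, minus strand.
Ciart: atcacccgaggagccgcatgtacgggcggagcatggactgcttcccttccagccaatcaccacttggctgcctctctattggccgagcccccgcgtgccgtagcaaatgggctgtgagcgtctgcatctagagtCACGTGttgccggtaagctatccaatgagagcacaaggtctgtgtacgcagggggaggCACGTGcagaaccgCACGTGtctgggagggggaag
Bhlhe41: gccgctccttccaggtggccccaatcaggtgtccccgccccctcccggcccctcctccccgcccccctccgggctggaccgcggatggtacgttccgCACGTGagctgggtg
The 3 copies in the Ciart window began 116, 58 and 44 bases before its RefSeq start, and the single copy in the Bhlhe41 window began 153 bases before. At least 1 copy was found in 7.24% of 27025 promoters, and 3 or more copies in 0.0888% of them, which is 24 genes. The variant CACGTT, the D-box sequences TTATGTAA and TTACGTAA, the ROR element TAGGTCA and the cAMP element TGACGTCA were not found in either window. These motifs were found in 4.77%, 0.955%, 0.107%, 2.64% and 1.88% of all promoters, in the same order. CACGTG reads the same on both strands and overlapped none of the others here. A match describes the letters only and says nothing about binding in these livers.

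Values are scaled counts, which were recovered from the deposited values and put on a common scale, so that 1 unit is about 1 recovered count in an average library. Recovered totals lay between 112.0 and 256.0 M per library, where M is 1000000 counts. These totals exceed the depth given for the study, so precision was taken from the spread between mice. Of 5 measured hepatocyte markers, among them Apoa1 and Ttr, all were above 0 in every library, and their summed level per kilobase had a median of 5.24 M under DRF and 5.79 M under NRF. Alb was not rebuilt and was not used. The summed Kupffer cell, endothelial and stellate cell markers had medians of 149419, 34789 and 26374 under DRF and of 150700, 35021 and 26543 under NRF. The summed cholangiocyte and T and B cell markers had medians of 773 and 220 under DRF and of 839 and 284 under NRF. Of 3 pancreas markers only 1 was measured, with medians of 445 under DRF and 680 under NRF. The Kupffer cell marker Csf1r and the cholangiocyte marker Epcam were also missing from these sums. In whole liver, fewer cells of a type and less RNA per cell cannot be told apart.

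Per kilobase of exon, Bhlhe40 was the most abundant of the 3 genes in 56 of 56 livers. It averaged 3190 scaled counts per kilobase, which was 20.6 times the level of Ciart (154.8) and 119.8 times that of Bhlhe41 (26.6). Ciart lay above Bhlhe41 in 53 of 56 livers. The exceptions were 2 livers of NRF ZT4 and 1 of NRF ZT24, where both genes were near their lowest levels. The distance between the genes changed with time. At NRF ZT8 Bhlhe41 reached 150.1 per kilobase and Bhlhe40 was 24.3 times higher, whereas at DRF ZT4 it was 594 times higher.

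Ciart had the widest swing of the 3 genes by the ratio of its highest to its lowest group mean. Under NRF it was high at ZT12, with scaled counts of 969, 1781, 940 and 1794 in the 4 livers, and low at ZT4, with 19.4, 19.7, 5.17 and 21.5. The means, 1371 ± 482 (SD, n = 4) and 16.5 ± 7.59, differed 83.3-fold and their livers did not overlap. The highest and lowest groups of each gene were picked by their means, so their separation here and below is only a description. The share of all genes without overlap was counted only between regimens at the same ZT. The climb fell between ZT4 and ZT8, when it reached 458, 488, 854 and 632. After the peak it held 519, 505, 509 and 311 at ZT16, then 147, 137, 186 and 129 at ZT20 and 39.0, 28.5, 13.5 and 25.6 at ZT24. From ZT12 to ZT24 the livers of each time lay below those of the time before, with no overlap.

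Under DRF the same gene was high at ZT0, with 1049, 757, 953 and 1004, and low at ZT12, with 69.9, 70.6, 76.7 and 48.5. The means of 941 ± 128 and 66.4 ± 12.3 differed 14.2-fold, again without overlap. Between them it held 435, 281, 397 and 402 at ZT4 and 113, 55.0, 181 and 95.9 at ZT8. The livers of ZT12 and ZT16 overlapped, and so did those of ZT16 and ZT20, where the mean was 152 ± 41.4. Its lowest DRF group mean was 4.04 times its lowest NRF group mean, which was only 16.5 scaled counts.

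A 24-h rhythm was called in both regimens by the limma F test on cosine and sine terms over 28 livers, with Benjamini-Hochberg adjusted p = 6.8e-09 under DRF and 7.5e-11 under NRF. All 3 repressors passed this test in both regimens, where 42.8% of all genes passed under DRF and 43.0% under NRF.

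Bhlhe41 under NRF was a narrow peak. The livers of ZT8 held 1003, 683, 1375 and 974, and those of ZT12 held 373, 528, 357 and 142. At ZT0, ZT4, ZT16, ZT20 and ZT24 every liver lay between 26.5 and 80.3. The ZT8 mean of 1009 ± 284 was 28.7 times the ZT0 mean of 35.2 ± 4.09.

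Under DRF the peak of Bhlhe41 was lower and lay across the end of the dark phase. It held 157, 267, 195 and 216 at ZT20, then 392, 239, 191 and 292 at ZT0, and every liver from ZT4 to ZT16 lay between 28.9 and 94.5. The ZT0 mean of 279 ± 86.4 was 5.76 times the ZT4 mean of 48.4 ± 15.7. At ZT24 the livers held 430, 68.8, 105 and 132, so replicate 1 lay far above the other 3. The adjusted p of the 24-h rhythm was 0.00070 under DRF and 6.5e-07 under NRF.

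Bhlhe40 moved least. Under NRF it held 5144, 4841, 3796 and 6267 at ZT4 and 23295, 23325, 15271 and 27718 at ZT16. The means, 5012 ± 1017 and 22402 ± 5188, differed 4.47-fold without overlap. It held 14701, 14548, 21744 and 17637 at ZT8, a range that overlapped those of ZT12 (17515 ± 2285) and ZT20 (16210 ± 3223). At ZT24 it held 9854, 11272, 10040 and 8961, all below the livers of ZT20. Under DRF it held 8925, 8162, 11521 and 12229 at ZT16 and 15096, 35740, 25475 and 25718 at ZT0. Those means, 10209 ± 1970 and 25507 ± 8429, differed 2.50-fold, and their livers did not overlap either. The 4 livers of DRF ZT20 spread widely, at 10720, 9283, 19996 and 23270, and overlapped those of both ZT16 and ZT0. The rhythm had an adjusted p of 0.0022 under DRF and 5.3e-06 under NRF. An exact rank test against 12 cosine templates also called all 3 repressors in both regimens, with adjusted p up to 0.015. Of 20609 genes, the rank test called 7709 under DRF and 7842 under NRF.

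**Figure D1:**
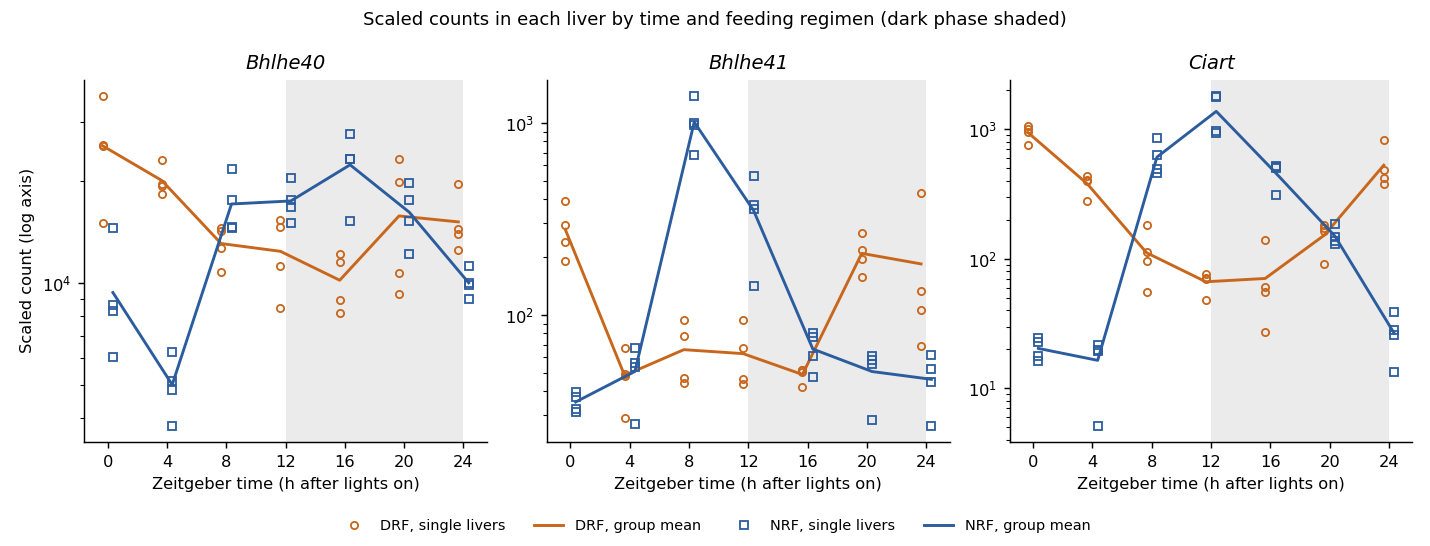
Scaled counts (log axis) against zeitgeber time in hours for Bhlhe40, Bhlhe41 and Ciart, with open circles (DRF) and squares (NRF) for single livers, lines through the means of 4 livers and the dark phase shaded. The NRF curves of Ciart and Bhlhe41 span 83.3-fold and 28.7-fold between group means, against 14.2-fold and 5.76-fold under DRF. The curves of the 2 regimens peak at different times. Livers of the regimens overlap at ZT20 for Ciart and Bhlhe40, at ZT4 and ZT16 for Bhlhe41, and at ZT8 and ZT12 for Bhlhe40.

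At the same clock time the regimens differed most for Ciart, with a difference past the threshold at 6 of 7 times. At ZT0 it was higher under DRF than NRF, where the livers held 17.7, 22.9, 24.4 and 16.2, by 5.47 ± 0.37 on the log2(scaled count + 1) scale (SE, limma contrast, adjusted p = 1.4e-15). This corresponded to a ratio of means of 46.2. At ZT12 it was lower under DRF by 4.30 on that scale (log2 difference -4.30 ± 0.37, adjusted p = 2.3e-12), a 20.6-fold ratio. At ZT20 the livers of both regimens lay between 91.3 and 186 and the difference was -0.01, with a 95% interval from -0.76 to 0.74. Of all genes 22.8% passed this test at ZT4 and 14.1% at ZT8, the ends of the range, with 17.5% at both ZT0 and ZT12. The shares at ZT16, ZT20 and ZT24 were 17.7%, 15.9% and 15.7%.

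Bhlhe41 differed at 5 of 7 times, and by more than Ciart at ZT8 and ZT20. Its largest gap stood at ZT8, where the DRF livers held 44.4, 46.6, 94.5 and 78.0 and the NRF mean was 15.3 times higher (log2 difference -3.95 ± 0.39, adjusted p = 2.4e-10). At ZT0 and ZT20 it was higher under DRF by 2.91 and 2.06 (adjusted p = 1.4e-07 and 9.1e-05). At ZT4 and ZT16, when both regimens were low, the differences of -0.05 and -0.41 did not pass.

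Bhlhe40 differed at 3 of 7 times. It was higher under DRF at ZT0 by 1.45 ± 0.25 and at ZT4 by 2.02 ± 0.25 (adjusted p = 1.5e-05 and 1.8e-08), and lower at ZT16 by 1.12 (log2 difference -1.12 ± 0.25, adjusted p = 0.00082). At ZT24 the 4 DRF livers lay above the 4 NRF livers, yet the difference of 0.58 had an adjusted p of 0.11. At that time the regimens did not overlap for 18.5% of all genes.

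**Figure D2:**
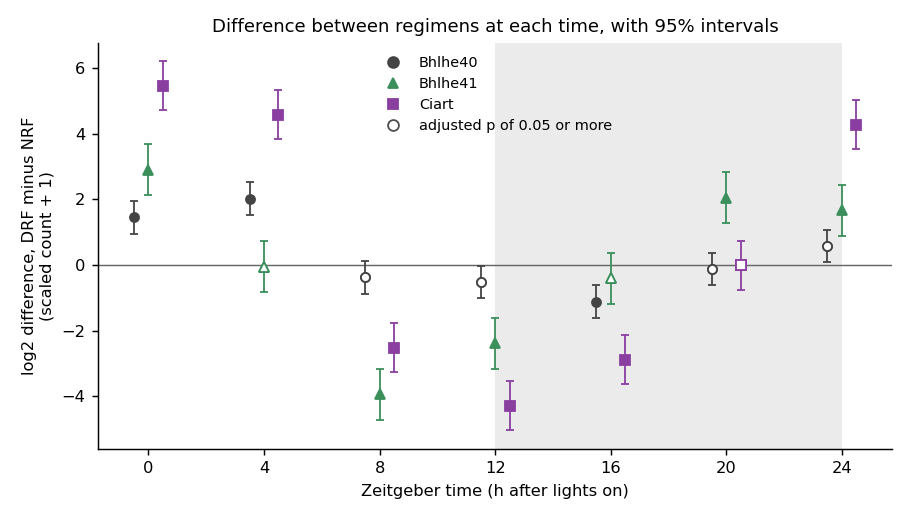
Difference between regimens (DRF minus NRF, log2 of scaled count + 1) against zeitgeber time in hours, with 95% intervals from the limma fit, n = 4 livers per regimen and time, and open symbols where the adjusted p was 0.05 or more. Ciart runs from 5.47 at ZT0 to -4.30 at ZT12, while Bhlhe40 stays between -1.12 and 2.02.

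The test of a difference in 24-h rhythm between the regimens compares the cosine and sine terms themselves. All 3 repressors passed it, as did 43.0% of all genes, with adjusted p of 3.1e-20 for Ciart, 1.1e-10 for Bhlhe41 and 6.6e-09 for Bhlhe40. The rhythm-adjusted mean on the log2 scale did not pass for any of them, with differences (DRF minus NRF) of -0.02 ± 0.21, -0.40 ± 0.24 and 0.13 ± 0.12 in the same order. In this test 7.54% of all genes passed. A test on scaled counts without the logarithm gave mean differences of -184 (95% interval -317 to -51.5, adjusted p = 0.077) for Ciart and -151 (-253 to -48.5, adjusted p = 0.057) for Bhlhe41. In that test 7.71% of all genes passed.

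Peak times were read from a cosine of 24 h fitted to scaled counts. Ciart peaked at ZT 12.0 ± 0.48 under NRF and at ZT 0.89 ± 0.80 under DRF. Bhlhe41 peaked at ZT 8.88 ± 0.52 and ZT 22.3 ± 2.06, and Bhlhe40 at ZT 14.7 ± 0.65 and ZT 1.56 ± 0.94. The DRF peak therefore followed the NRF peak by 12.9 h (95% interval 11.05 to 14.8) for Ciart, by 13.5 h (9.19 to 17.7) for Bhlhe41 and by 10.8 h (8.55 to 13.1) for Bhlhe40. Each interval contains 12 h, the distance between the feeding phases, and a shift of this size does not say whether the peak moved forward or back. The shift from 0 had adjusted p of 8.8e-15, 3.9e-05 and 1.3e-11 in this order, with 45.1% of all genes called.

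The 3 genes followed each other in the same order in both regimens, Bhlhe41 first, then Ciart, then Bhlhe40. Under NRF Bhlhe41 peaked 3.09 h (95% interval 1.27 to 4.92) before Ciart, and Ciart peaked 2.75 h (1.08 to 4.41) before Bhlhe40. Under DRF Bhlhe41 preceded Ciart by 2.55 h (0.81 to 4.30), while the gap of 0.67 h between Ciart and Bhlhe40 had an interval from -1.61 to 2.96. These intervals used the spread within each regimen alone, whereas the errors of the peak times pooled both regimens. The intervals were not adjusted for the number of gaps. The single cosine misses the narrow top of Bhlhe41, whose fitted NRF amplitude exceeded its mean. Ciart also departed from a single cosine under NRF, where an added component of 12 h passed (limma F test, adjusted p = 0.0014).

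The amplitude, which is the height of the fitted top above the mean, had a lower value under DRF for each of the 3 genes, but which call was made depended on the scale. In scaled counts Bhlhe41 had an amplitude of 98.1 ± 48.8 under DRF and 373 ± 51.1 under NRF, a difference of -275 (95% interval -417 to -133, adjusted p = 0.0097). Ciart had 334 ± 62.3 and 559 ± 61.9 (difference -224, -401 to -47.9, adjusted p = 0.12), and Bhlhe40 had 5234 ± 1178 and 7266 ± 1220 (difference -2032, -5439 to 1375, adjusted p = 0.57). On the log2 scale Ciart passed, with 1.85 under DRF and 3.13 under NRF (difference -1.27 ± 0.29, adjusted p = 0.0030). There Bhlhe41 (-0.99 ± 0.33, adjusted p = 0.061) and Bhlhe40 (-0.38 ± 0.17, adjusted p = 0.18) did not pass. A lower amplitude under DRF was called for 5.12% of all genes in scaled counts and 4.94% on the log2 scale. On the log2 scale it was also called for the clock genes Arntl, Npas2, Per1, Per2, Per3, Cry1, Nr1d1, Nr1d2, Dbp and Tef. Of these, Npas2 (-2.25), Nr1d1 (-2.21), Dbp (-1.55) and Per1 (-1.30) had larger differences than Ciart. The other clock genes measured did not pass.

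**Figure D3:**
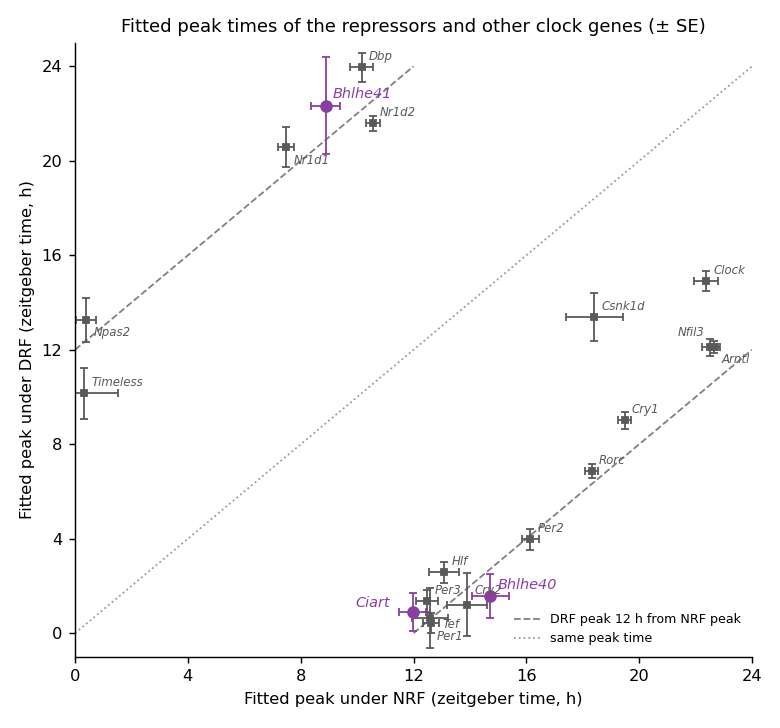
Fitted peak under DRF against fitted peak under NRF, both in hours of zeitgeber time with SE bars, for Bhlhe40, Bhlhe41 and Ciart (purple circles) and for the 17 other clock genes called rhythmic in both regimens (grey squares). The repressors lie near the dashed line of a 12 h distance, with shifts of 10.8, 13.5 and 12.9 h.

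Pairs of groups at the same hour of the feeding schedule but in opposite light were compared next. These contrasts reuse the livers of the comparisons at fixed ZT and are not independent of them. Overlap of livers was not counted over all genes for these pairs, so it is only described. Between regimens at the same ZT, 17.7% (ZT16) to 24.9% (ZT4) of all genes did not overlap. The start of the feeding phase was sampled at both ZT0 and ZT24 under DRF, and its end at both ZT0 and ZT24 under NRF, so these hours give 2 pairs each. At the start (DRF ZT0 minus NRF ZT12) no repressor passed. The log2 differences were -0.48 (95% interval -1.23 to 0.27) for Ciart, -0.23 (-1.01 to 0.55) for Bhlhe41 and 0.49 (-0.01 to 0.98) for Bhlhe40. In this pair 3.15% of all genes passed. With the livers of DRF ZT24 in place of ZT0, Ciart was lower under DRF (log2 difference -1.38 ± 0.37, adjusted p = 0.013), at 821, 380, 484 and 423 against 969, 1781, 940 and 1794 at NRF ZT12, with no overlap. Bhlhe41 differed by -1.14 ± 0.39 (adjusted p = 0.051) and Bhlhe40 by -0.22 ± 0.25 (adjusted p = 0.65), and 9.50% of all genes passed. At 4 h and 8 h into the feeding phase the differences lay between -0.53 and 0.36 and no repressor passed, where 17.6% and 13.3% of all genes passed.

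At 16 h (DRF ZT16 minus NRF ZT4), in the hours without food, Ciart was higher under DRF, with 139, 60.3, 27.2 and 55.2 against the NRF values given above, by 1.96 ± 0.37 (adjusted p = 0.00016). Bhlhe40 was higher by 1.03 ± 0.25 (adjusted p = 0.0022), with no overlap of livers. Bhlhe41 differed by 0.02, with an interval from -0.76 to 0.79. In this pair 19.5% of all genes passed, and overlap of livers was not counted over all genes.

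At 20 h (DRF ZT20 minus NRF ZT8) the order turned. The livers of DRF ZT20 held 91.3, 162, 174 and 181 for Ciart, all below the 4 of NRF ZT8, and the difference was -1.995 ± 0.37 (adjusted p = 0.00014). Bhlhe41 was also lower, by 2.25 (log2 difference -2.25 ± 0.39, adjusted p = 4.4e-05). Bhlhe40 differed by -0.21, with an interval from -0.70 to 0.29. Of all genes 18.1% passed, with 8.98% lower, and overlap of livers was not counted over all genes. At 12 h (DRF ZT12 minus NRF ZT24) Ciart was higher by 1.36 ± 0.37 with an adjusted p of 0.045 and 1.64% of all genes passed. This call was lost when any of 7 single livers was left out, with adjusted p up to 0.17. The scaled count averaged 26.6 ± 10.5 under NRF and 66.4 ± 12.3 under DRF. Against NRF ZT0, the other group at 12 h, Ciart was higher by 1.66 ± 0.37 (adjusted p = 0.0027), a call kept in all 56 fits without 1 library, with 11.1% of all genes passing. Bhlhe41 and Bhlhe40 passed in neither pair.

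**Figure D4:**
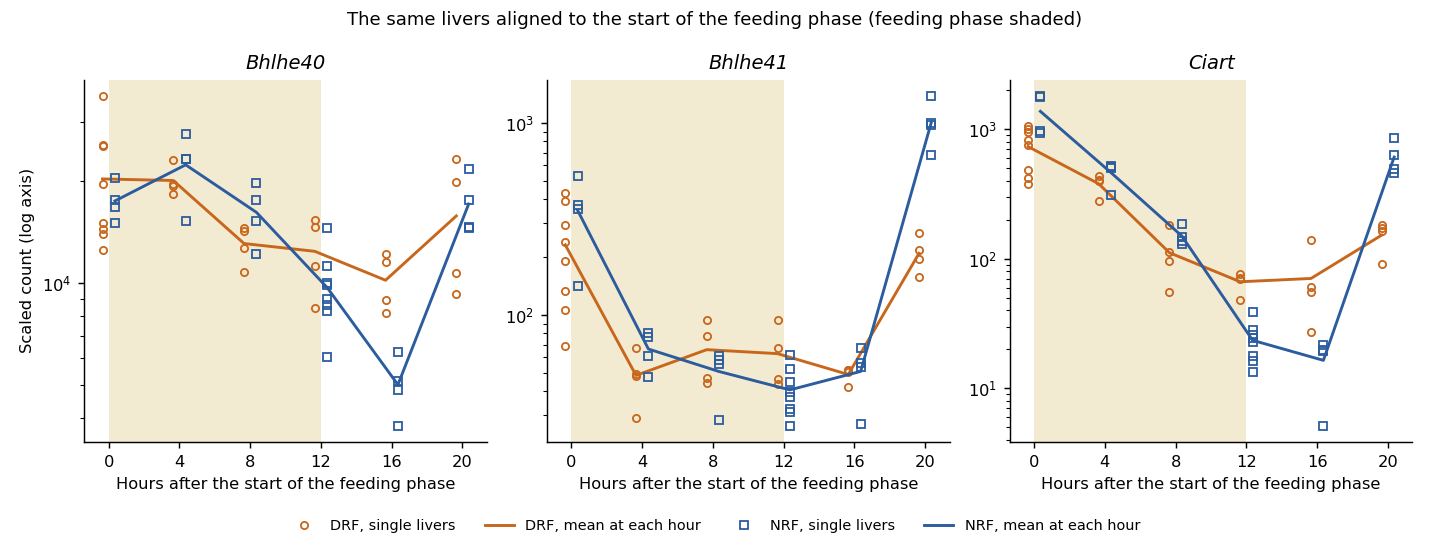
Scaled counts (log axis) of the same livers against hours after the start of the feeding phase, which is ZT0 under DRF and ZT12 under NRF, with lines through the mean at each hour. Hours 0 under DRF and 12 under NRF hold 8 livers, from ZT0 and ZT24. At 0 h Ciart passed the test with DRF ZT24 and not with DRF ZT0, and no difference at 4 or 8 h passed. At 20 h Ciart and Bhlhe41 are higher under NRF, where all 4 livers lie above the 4 of DRF. Overlap of livers was not counted over all genes for these pairs.

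ZT24 repeats the clock time of ZT0. Under DRF all 3 repressors averaged lower at ZT24, with log2 differences of -0.89 ± 0.37 for Ciart, -0.91 ± 0.39 for Bhlhe41 and -0.70 ± 0.25 for Bhlhe40. None passed after adjustment (adjusted p = 0.17, 0.18 and 0.093 from limma), while 3.56% of all genes did. Without adjustment the p-values were 0.020, 0.023 and 0.0063. The same difference under NRF was 0.30, 0.33 and 0.17, and the test of DRF against NRF gave adjusted p between 0.77 and 0.80, with 0.00485% of all genes called. In the fits that each left out 1 library, Ciart did not pass in any of 56, while Bhlhe41 and Bhlhe40 passed in 1 each. Without replicate 1 of DRF ZT24 the Bhlhe41 difference was -1.44 (adjusted p = 0.028), and without replicate 1 of DRF ZT0, the lowest of its group, the Bhlhe40 difference was -0.93 (adjusted p = 0.027). Replicate 1 of DRF ZT24 was also high for Ciart, at 821 against 380, 484 and 423. It was the highest of its group for 7 of 21 clock genes and the lowest for 6.

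A component of 12 h added to the fit measures departure from a single cosine. Under NRF it passed for Ciart and Bhlhe41 (adjusted p = 0.0014 and 0.0019) and not for Bhlhe40 (0.17), where 0.820% of all genes passed. Its amplitudes were 1.06, 1.13 and 0.38 on the log2 scale. Under DRF it passed for Bhlhe41 alone (adjusted p = 0.012, Ciart 0.11, Bhlhe40 0.91), where 7.58% of all genes passed. Of 21 other clock genes, 6 passed under NRF and 8 under DRF.

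The transcript table held 4 transcripts of Bhlhe40, 1 of Bhlhe41 and 3 of Ciart. They were recovered with less certainty than the genes, since in each library between 40.2% and 42.3% of those used to set the scale lay within 2% of the curve. Their values stand on a separately fitted scale and cannot be read as parts of the gene counts. A 24-h rhythm was called for 8 of 8 transcripts in both regimens, where 10.8% (DRF) and 10.3% (NRF) of 56010 transcripts passed. Ciart-202, the more abundant of its transcripts over all livers, averaged 958 ± 217 (n = 4) at NRF ZT12 and 596 ± 388 at DRF ZT0. Ciart-201 averaged 289 ± 227 and 716 ± 484 in these groups and was listed at 0 in all 4 livers of NRF ZT0 and of NRF ZT4. Bhlhe40-201, which runs the length of the gene, had adjusted p of 0.023 under DRF and 0.00015 under NRF, and Bhlhe41-201 had 0.0031 and 1.2e-05.

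The other genes of the clock loops gave the frame for these values. Of 22 listed genes 21 were measured, and 20 were called rhythmic under DRF, 17 under NRF and 17 for the difference between regimens. For 17 called rhythmic in both regimens, the median distance between the 2 peaks was 10.9 h and ranged from 5.03 to 11.9 h. For the 3 repressors it ranged from 10.5 to 11.1 h, counted the shorter way round the day. Over 5222 genes rhythmic in both regimens the median was 8.18 h, and 66.2% shifted by over 6 h. At DRF ZT20 minus NRF ZT8, where 18.1% of all genes passed, 11 of 21 clock genes passed, 6 higher and 5 lower. Among them Nr1d1, a repressor of Arntl, was lower (log2 difference -1.604) as was the clock output gene Dbp (-1.497), while Arntl was higher by 1.77. At DRF ZT16 minus NRF ZT4, where 19.5% of all genes passed in either direction, 12 of 21 clock genes passed, 11 of them higher. Per1 was higher by 1.97, Per3 by 1.56, Tef by 1.32 and Per2 by 1.20, and Nr1d1 was lower (-1.19).

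Likeness was measured as Pearson's r on log2(scaled count + 1) over all 56 livers, which share regimens and times, so it is given as a description. Among 22698 genes, Ciart was most like Per3, a member of the PER family (r = 0.946), followed by the output gene Tef (0.921), Gm17597 (0.909), the deubiquitinase gene Usp2 (0.901) and the cell cycle kinase gene Wee1 (0.898). It was least like Clpx (-0.896), Tars (-0.888) and Gm16218 (-0.882), and its r with Arntl was -0.807. Bhlhe40 was most like its antisense neighbour 0610040F04Rik (0.913), with which it shares 118 exon bases, then the deadenylase gene Noct (0.857), Usp2 (0.838), Wee1 (0.812) and Per3 (0.796). Among its lowest values were those with Gm40264 (-0.777) and Prf1 (-0.761).

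Bhlhe41 shared none of its 5 most alike genes with those of the other repressors. Its highest values were with Azin2 (0.829), Zfp526 (0.822), Mcm10 (0.821), Sipa1l2 (0.813) and Rnf19b (0.810), and its lowest with Net1 (-0.835), Lnx2 (-0.823) and St3gal1 (-0.823). By Spearman's rho none of these 5 stayed among the 5 most alike, and 3 did by Pearson's r over the 14 group means. Between the repressors r was 0.775 for Ciart and Bhlhe40, 0.676 for Ciart and Bhlhe41 and 0.408 for Bhlhe40 and Bhlhe41. Bhlhe41 had r of 0.793 with Dbp and -0.815 with Arntl.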

How the data were processed

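RNA of 56 livers was sequenced after ribosomal RNA depletion as strand-specific paired reads, although the molecule field says polyA RNA. The submitters' processing notes name CASAVA 1.8, featureCounts 1.5.0-p3, mm10 and GRCm38.p6. The aligner is not given in the sources used here. The authors deposited gene and transcript tables of values named TPM, whose unit is treated as a score because the values are compressed by a logarithm: multiplied by exon length, each value equalled a·ln(1 + f·k), where k is a whole count and a and f are constants of the library. The curve was fitted per library on part of the genes. In genes left out, between 95.5% and 98.9% of values lay within 0.05 of a whole number, where 10% would by chance. The scaled count is k·f divided by the geometric mean of f. Of 25415 genes, 23215 were rebuilt with GENCODE vM21 lengths, 1147 assembled loci without an Ensembl identifier were left out, and 20609 with a mean scaled count of at least 10 were tested. The circRNA table was not used.

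Tests used limma 3.58.1 (R 4.3.3) on log2(scaled count + 1) over all genes, Benjamini-Hochberg adjusted at 0.05. This scale understates changes of low genes. Within each regimen cosine and sine terms of 24 h (and of 12 h) were fitted over 28 libraries. Contrasts between groups came from 1 fit of 14 groups, with 95% intervals on 42 degrees of freedom. Peaks, amplitudes and means came from cosine fits to scaled counts with errors by the delta method on 50 degrees of freedom, since CircaCompare and MetaCycle were not used here. Scripts were tested on simulated data. Each table column was matched to its sample by name. The labels give no batch, and p-values measure the spread between mice. The design had assumed linear TPM, and its tests were applied to scaled counts. The members, the gene lists and the rule for named genes (the members, the clock genes and, for each member, the 5 genes most and 3 least like it) were chosen with earlier results of these data known. A gene that this rule names is not reported here.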

Additional observations from a re-analysis of the deposited data

Results flagged for a closer look

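Of 42 groups of 4 livers tested for a sample far from the rest (gap over range above Dixon's 95% critical value), 4 were marked, and chance marks about 1 in 20. Ciart was lowest in replicate 3 of NRF ZT4, at 5.17 scaled counts, and in replicate 4 of NRF ZT16, at 311. Bhlhe41 was lowest in replicate 4 of DRF ZT16, at 41.9, and in replicate 4 of NRF ZT20, at 28.2. The difference between regimens changed with the time of day for each repressor by the limma test of the 24-h terms, with adjusted p = 3.14e-20 for Ciart, 1.06e-10 for Bhlhe41 and 6.63e-09 for Bhlhe40.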

How the results depend on the processing

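For 81 results on the 3 repressors, 687 of 702 values under other inputs, scalings, filters, pseudocounts and tests kept their direction and their side of the threshold. With the deposited values the Ciart difference at DRF ZT12 minus NRF ZT24 was 0.86, with no filter it was 1.36 (adjusted p = 0.051), and with a pseudocount of 1 unit of the authors' scale, chosen after seeing the data, it was 0.10. That pseudocount also took Ciart to a log2 difference of 0.14 at DRF ZT16 minus NRF ZT4 and of 0.12 at DRF ZT12 minus NRF ZT0. It took the 12-h component of Bhlhe41 under DRF to an adjusted p of 0.069, and none of these results passed any longer. It moved the 12-h component of Ciart under DRF to an adjusted p of 0.018. The Ciart ZT24 minus ZT0 difference under DRF became -0.50 (adjusted p = 0.0082), and both then passed. At the start of feeding Ciart passed with DRF ZT24 (-1.38) and not with DRF ZT0. Bhlhe41 at DRF ZT24 minus NRF ZT12 passed with the deposited values (-0.67), the added pseudocount (-0.32) and the replicate block (-1.14, adjusted p = 0.046), and Bhlhe40 at DRF ZT12 minus NRF ZT0 with the deposited values (0.21). On the log2 scale the amplitude difference was -0.99 for Bhlhe41, no longer past the threshold, and -1.27 for Ciart, now past it. The causes were not tested.

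Leaving out 1 library at a time kept 4509 of 4536 calls. Bhlhe41 at DRF ZT24 minus NRF ZT12 ranged from -1.67 to -0.79 and passed in 9 fits, at -1.67 without DRF ZT24 replicate 1, -1.52 without NRF ZT12 replicate 4 and -1.14 without any of 7 libraries of other groups. Ciart at DRF ZT12 minus NRF ZT24 ranged from 1.08 to 1.57 and lost its call in 7 of 56 fits, those without DRF ZT0 replicate 4, DRF ZT12 replicates 1, 2 and 3, and NRF ZT24 replicates 2, 3 and 4. The ZT24 minus ZT0 difference under DRF ranged from -0.93 to -0.52 for Bhlhe40 and from -1.44 to -0.56 for Bhlhe41, each past the threshold in 1 fit (without DRF ZT0 replicate 1 and DRF ZT24 replicate 1). The mean difference in scaled counts ranged from -171 to -115 for Bhlhe41, past the threshold in 7 fits (without DRF ZT24 replicate 1, any NRF ZT4 library, or NRF ZT12 replicates 3 or 4), and from -205 to -143 for Ciart, past it in 2 (without DRF ZT0 replicate 1 or NRF ZT16 replicate 4). Samples with the same replicate number did not deviate together (mean correlation 0.0018 over 364 pairs, 19 of 56 libraries closest to their own number), and the replicate block changed no other call on the repressors.

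Over all genes, the deposited values gave 622 and 55 calls for the 12-h component (1562 and 169 with scaled counts), 351 for DRF ZT0 minus NRF ZT12 (649), 174 for DRF ZT12 minus NRF ZT24 (337), 4609 for DRF ZT12 minus NRF ZT0 (2295), and 1912 and 6001 for ZT24 minus ZT0 under DRF and NRF (733 and 1917). Leaving out single libraries moved the count for DRF ZT0 minus NRF ZT12 between 308 and 1331, for DRF ZT12 minus NRF ZT24 between 151 and 423 and for ZT24 minus ZT0 under DRF between 219 and 953. DRF ZT24 minus NRF ZT12 had 1042 calls (1957 with all) without NRF ZT12 replicate 3, and DRF ZT12 minus NRF ZT0 had 1268 without NRF ZT0 replicate 2. With the length trend removed ZT24 minus ZT0 under NRF had 1178 calls. Its test between regimens called 1 gene, and 0 with no filter or without the length trend. Recovered counts are not reads, so no depth floor is known.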
